A study of Mus musculus with 19 samples.

Results

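The interferon-inducible GTPases described here are 8 genes, taken by symbol from a table of 16941 genes: the guanylate-binding proteins Gbp2, Gbp3, Gbp5 and Gbp7, and the immunity-related GTPases Irgm1, Irgm2, Igtp and Tgtp1. All 8 had enough counts to be tested. They were measured in 19 libraries of microglia (the macrophages that live in brain tissue) kept in culture after isolation from cortical tissue of C57BL/6 mice 10 to 11 months old. The mice were wild type (WT) or carried the hAPPJ20 transgene (APP), a human amyloid precursor protein with the Swedish and Indiana mutations driven by a PDGF promoter. All cultures, WT and APP alike, were grown for 4 weeks with 10% serum and the growth factor M-CSF at 5 ng/mL. The cells were then given medium alone (vehicle) or 100 ng/mL of lipopolysaccharide (LPS) for 6 h and a 16 h rest in fresh medium, so every level describes cells some hours after the exposure ended. The WT libraries were 4 with vehicle and 5 with LPS, and the APP libraries 5 with vehicle and 5 with LPS. Whether each is its own animal or culture is not in the labels, so a p-value covers only the spread of the libraries at hand, part of which may be technical.

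LPS, a component of the outer membrane of Gram-negative bacteria, signals through Toll-like receptor 4 to NF-kappaB and to the factors that switch on type I interferon genes. Secreted interferon then acts through its receptor, the JAK kinases and the STAT factors on 2 kinds of DNA site, the interferon-stimulated response element (ISRE) and the gamma-activated site (GAS). The GTPases are among the most strongly induced products of interferon signalling in mouse macrophages. Guanylate-binding proteins coat microbes and the vacuoles around them and expose bacterial LPS to caspase-11, and immunity-related GTPases attack such vacuoles or hold the attackers inactive on the cell's own membranes.

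The promoters of the 8 genes were searched for both kinds of site. The genes were chosen as interferon-inducible, so such sites were likely in them from the start, and the shares of all genes are given for scale only. In a window of 300 bases around the RefSeq start site (250 before it and 50 after it, GRCm38.p6), the ISRE core, GAAA followed by any 2 bases and GAAA, on either strand, was found in 8 of 8 genes and in 3.99% of 27025 genes, counting a gene when any of its windows held it. By window it was in 8 of the members' 9 (Gbp3 has a second start site) and in 3.44% of 32851. The GAS core TTCNNNGAA, which reads the same on both strands, was found in 5 of 8 genes and in 9.55% of all genes. Both cores together were found in 5 of 8 genes (Gbp5, Gbp7, Igtp, Irgm2 and Tgtp1) and in 0.54% of all genes. A kappaB match, GGG followed by any 2 bases and TTTCC on either strand, was found in 1 of 8 genes, Gbp5, and in 1.89% of all genes. A match is a run of letters and does not show that a factor binds there, and some of the cores overlap each other. The stretches below are the 110 bases just before the start site, 5′ to 3′ on the gene's own strand, with ISRE and GAS cores in capitals. They are shown because Igtp, Irgm2 and Tgtp1 carry the 2 cores in the same order with 2 bases between them. Gbp2, Gbp3 and Irgm1 carry ISRE cores only. The Igtp and Irgm2 stretches are nearly the same around the cores, so the 8 genes are not 8 separate matches.
Gbp2 (chr3:142620553-142620662, plus strand): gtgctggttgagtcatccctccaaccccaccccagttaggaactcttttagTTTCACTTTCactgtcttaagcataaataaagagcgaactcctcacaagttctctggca
Gbp3 (chr3:142559934-142560043, plus strand): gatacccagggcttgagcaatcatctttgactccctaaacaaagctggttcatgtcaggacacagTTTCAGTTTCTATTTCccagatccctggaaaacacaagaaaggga
Irgm1 (chr11:48871421-48871530, minus strand): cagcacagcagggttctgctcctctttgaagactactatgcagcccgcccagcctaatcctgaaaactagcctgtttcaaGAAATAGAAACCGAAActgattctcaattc
Irgm2 (chr11:58214867-58214976, plus strand): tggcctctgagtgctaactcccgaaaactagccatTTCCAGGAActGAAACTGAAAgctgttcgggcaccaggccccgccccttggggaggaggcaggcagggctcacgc
Igtp (chr11:58199446-58199555, plus strand): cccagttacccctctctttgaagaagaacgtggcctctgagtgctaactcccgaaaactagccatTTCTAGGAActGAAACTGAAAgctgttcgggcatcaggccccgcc
Tgtp1 (chr11:48992247-48992356, minus strand): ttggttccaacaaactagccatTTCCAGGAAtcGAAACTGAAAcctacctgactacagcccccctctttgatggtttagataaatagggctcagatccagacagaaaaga

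Levels are given as CPM, counts scaled by library size, and each gene is compared with itself between libraries only. Libraries held 13065257 to 31248988 counts. The cells carried macrophage transcripts in every library (Csf1r and C1qa were at 0 in none), while the microglial genes P2ry12, Tmem119 and Sall1 were at 0 in 6, 3 and 2 libraries. The summed CPM of 20 microglia and macrophage markers was 1951 to 3975 in the 4 libraries numbered 57 to 60 and 6564 to 12722 in the other 15, and the summed CPM of 18 pericyte and fibroblast markers was 26932 to 80858 over the 19. In bulk libraries, fewer cells of a type and less RNA per cell cannot be told apart. Gbp2 was at 112 to 260 CPM in the 4 libraries with few macrophage transcripts and at 4.56 to 267 CPM in the other 15. By treatment, vehicle libraries 57 and 59 had 112 and 260 CPM, above the other vehicle libraries at 4.56 to 83.4 CPM. LPS libraries 58 and 60 had 207 and 195 CPM, within the 96.8 to 267 CPM of the other LPS libraries. The part of macrophage content in these levels was not tested. Of 21 lymphocyte markers, 10 were measured, and their sum was 0.0646 to 11.0 CPM. Library numbers in the labels run in consecutive vehicle and LPS numbers for 9 pairs (5 APP and 4 WT). The labels do not say that such a pair shares an animal or a culture, and WT LPS replicate 1 has no partner.

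**Figure D1:**
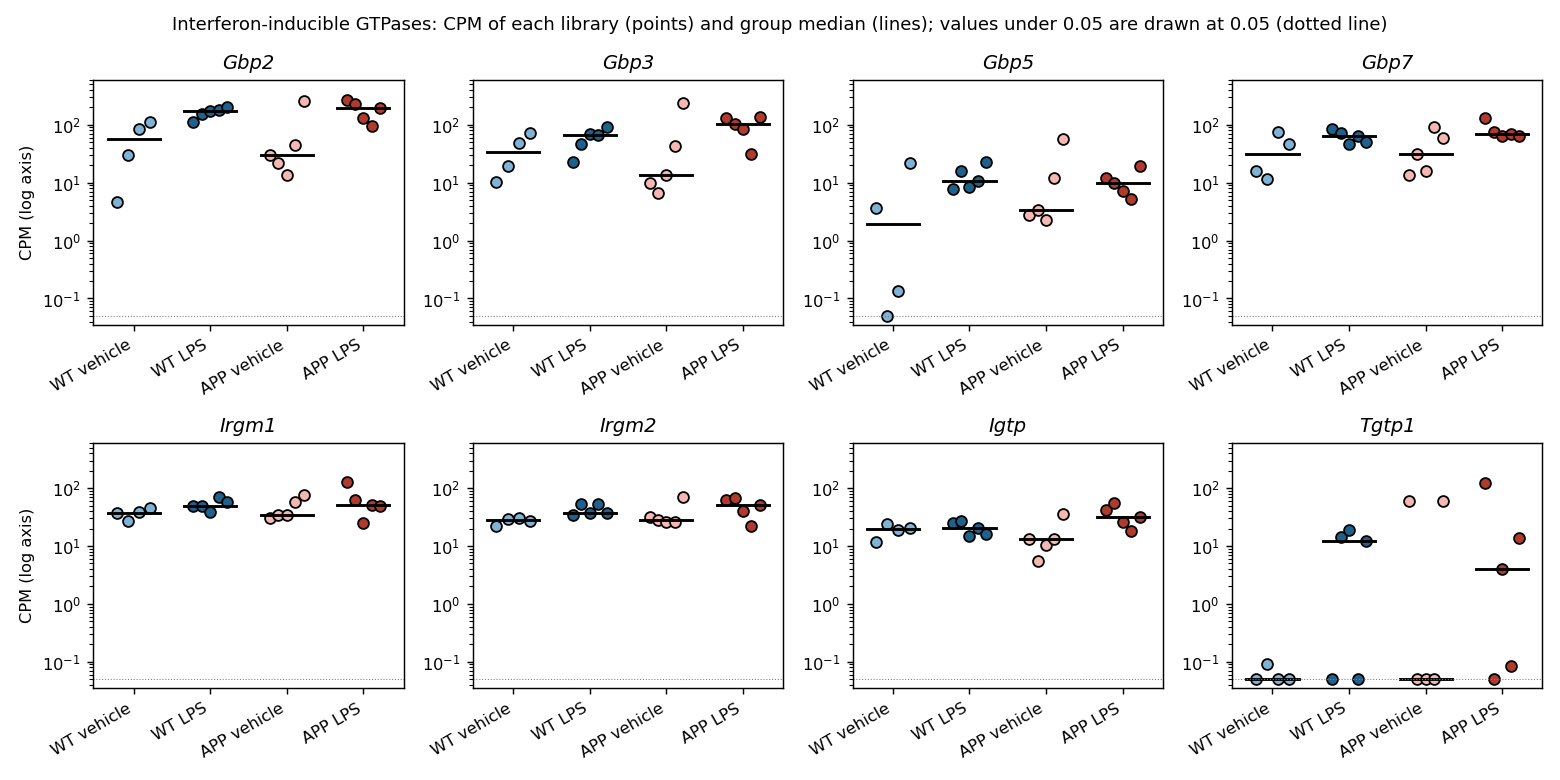
CPM of each of the 8 GTPases (log axis) in the 4 groups, 1 point per library and a line at the group median. Gbp2 ranged from 4.56 to 260 CPM in vehicle libraries and from 96.8 to 267 CPM after LPS.

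Gbp2, a prenylated guanylate-binding protein that gathers on pathogen vacuoles, was higher with LPS in 8 of 9 pairs. It was at 4.56, 30.6, 83.4 and 112 CPM in the WT vehicle libraries. It was at 110, 154, 176, 179 and 207 CPM in the WT LPS libraries. The WT ranges met only where the highest vehicle library (112 CPM) passed the lowest LPS library (110 CPM). In APP, vehicle libraries were at 29.6, 22.1, 13.5, 44.7 and 260 CPM and LPS libraries at 267, 225, 129, 96.8 and 195 CPM. The highest over the lowest library was 24.5-fold in WT vehicle against 1.88-fold in WT LPS, and 19.25-fold in APP vehicle against 2.76-fold in APP LPS, so the vehicle libraries were the more scattered in both genotypes.

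The other guanylate-binding proteins had the same shape of scatter. Gbp3, encoded on chromosome 3 like Gbp2, Gbp5 and Gbp7, was at 10.1, 19.5, 48.1 and 70.9 CPM in WT vehicle and at 23.0, 45.9, 69.3, 67.0 and 92.8 CPM in WT LPS libraries. In APP it was at 9.83, 6.51, 13.4, 43.1 and 236 CPM with vehicle and at 133, 103, 84.8, 30.7 and 136 CPM after LPS. The groups overlapped in both genotypes, and in APP the highest of the 10 libraries was a vehicle library. Gbp7, which takes part in oxidative defence at vacuoles, was at 11.8 to 76.4 CPM in WT vehicle, 47.5 to 86.1 CPM in WT LPS, 13.5 to 91.3 CPM in APP vehicle and 63.7 to 133 CPM in APP LPS libraries. Gbp5, linked to the NLRP3 inflammasome, had a low level. It was listed at 0 in WT vehicle replicate 2, where the floor set by 3 counts was 0.139 CPM, and reached 21.6 CPM in WT vehicle, 22.9 CPM in WT LPS, 55.9 CPM in APP vehicle and 19.5 CPM in APP LPS libraries.

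The regulatory immunity-related GTPases, which restrain the effector GTPases on the cell's own membranes, varied less with vehicle. Irgm2, found at the Golgi, was at 22.5, 28.9, 30.9 and 27.3 CPM in WT vehicle libraries. After LPS it was at 34.9, 52.9, 37.8, 54.0 and 37.6 CPM in WT. Every WT LPS library lay above every WT vehicle library, which was so for 1 of the 8 members and for 0.723% of 14113 genes. In APP, Irgm2 was at 32.03, 28.5, 26.5, 25.8 and 71.4 CPM with vehicle and at 61.2, 68.3, 40.7, 22.3 and 50.8 CPM after LPS. The APP ranges overlapped, and the lowest of the 10 APP values was an LPS library. No member was separated in that way in APP, where 0.255% of genes were.

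Irgm1, which is tied to mitochondria and autophagy, was at 27.0 to 46.2 CPM in WT vehicle, 38.5 to 70.9 CPM in WT LPS, 30.2 to 77.1 CPM in APP vehicle and 25.2 to 130 CPM in APP LPS libraries. Igtp, a regulator at the endoplasmic reticulum, was at 11.9 to 24.0 CPM in WT vehicle and 14.8 to 26.6 CPM in WT LPS libraries, so the WT ranges nearly coincided. In APP, Igtp was at 13.3, 5.56, 10.5, 13.4 and 35.5 CPM with vehicle and at 41.5, 54.3, 26.1, 18.1 and 31.8 CPM after LPS. The first 4 APP vehicle libraries lay below every APP LPS library, and the fifth lay among them.

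Tgtp1, an effector that loads onto vacuoles, has a near-identical copy, Tgtp2. In the GENCODE M21 transcripts, all runs of 31 bases in the last 500 bases of Tgtp1, where 3′ libraries place their reads, also occur in Tgtp2, and 0% are unique to Tgtp1. For the other 7 members 97% to 100% of those runs are unique. Igtp and Irgm2, whose annotated genes overlap, share 16.4% of the runs of the longest Igtp transcript and none in the last 500 bases. Which transcripts the authors counted against was not given in the sources used here.

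The counts of the copies were divided between them differently from library to library. Tgtp1 was listed at 0 in 7 of 19 libraries. In APP vehicle replicate 1, Tgtp1 had 59.4 CPM and Tgtp2 was listed at 0, and in APP LPS replicate 2, Tgtp1 was listed at 0 and Tgtp2 had 87.9 CPM. In APP vehicle replicate 5 the copies had 61.1 and 300.4 CPM. The sum of both was 13.1, 28.3, 7.22 and 67.9 CPM in WT vehicle and 22.9, 14.1, 67.3, 27.4 and 70.1 CPM in WT LPS libraries. The sum was 59.4, 26.9, 8.61, 59.3 and 361 CPM in APP vehicle and 123, 87.9, 22.4, 41.5 and 132 CPM in APP LPS libraries. The groups overlapped in both genotypes. The level of Tgtp1 alone is uncertain, so values of the sum are given below as well.

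**Figure D2:**
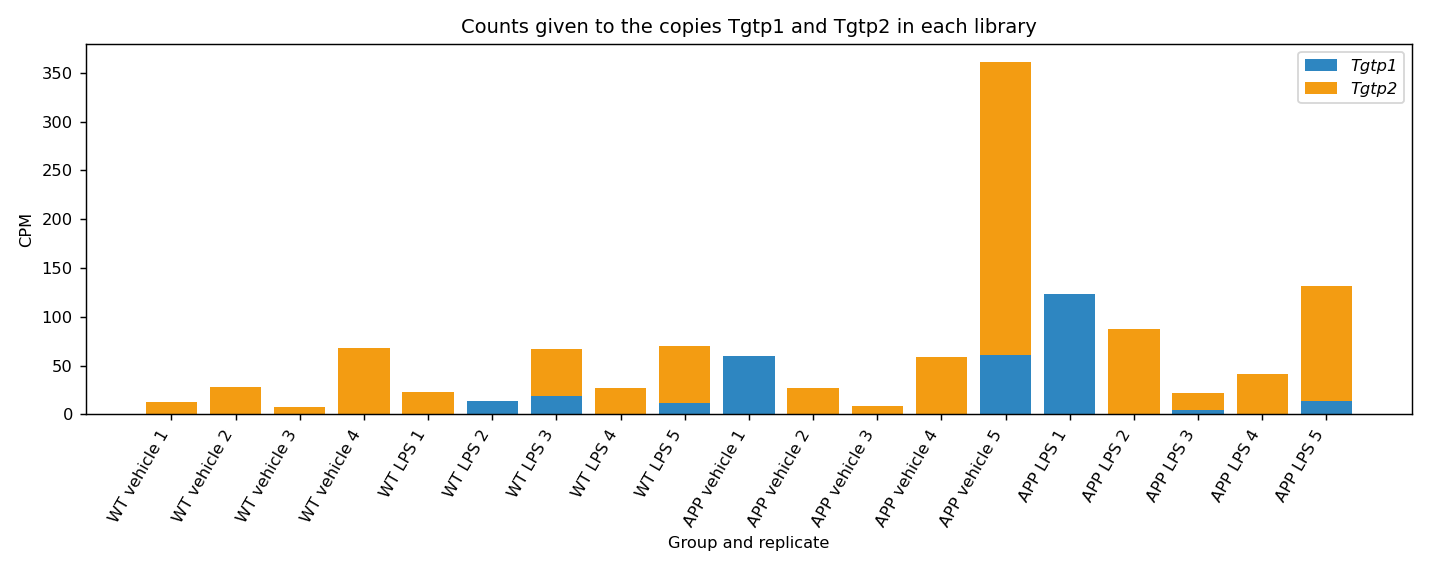
CPM given to Tgtp1 (blue) and Tgtp2 (orange), stacked, in each of the 19 libraries. One copy holds nearly all counts in most libraries, and which copy it is changes within a group, as between APP LPS replicates 1 (123 CPM of Tgtp1) and 2 (87.9 CPM of Tgtp2).

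The first question was whether LPS changed the GTPases. In 1 fit of the 4 groups over 19 libraries with edgeR's quasi-likelihood test, none of the 8 members passed an adjusted p of 0.05 for LPS averaged over the genotypes, where 0.0213% of 14113 genes did. At an unadjusted p under 0.05, 4 members were higher (Gbp2, Gbp7, Irgm2 and Tgtp1) and 3.12% of genes were. DESeq2 also called none of the 8 and 1.26% of genes, and 5 members were higher at an unadjusted p under 0.05 there, with 3.49% of genes. All 8 log2 changes were above 0, as were 47.9% of those of all genes, and their median was 0.65 against −0.02 over all genes (0.58 with Tgtp1 and Tgtp2 summed). Gbp2 had a log2 change of 1.41 ± 0.50 (SE; edgeR adjusted p = 0.620), Gbp7 of 0.86 ± 0.36 and Irgm2 of 0.53 ± 0.23. Gbp2 passed without the pair numbered 59 and 60 (2.11, edgeR adjusted p = 0.0476) and without libraries 57 to 60 (2.33, adjusted p = 0.0270). Those fits called 15 and 31 genes in all. With all 19 libraries the sum of Tgtp1 and Tgtp2 had a log2 change of 0.07 ± 0.54, while that of Tgtp1 alone rests on libraries at 0.

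Within each genotype the group fit called 0 of 8 members, and 0% of genes in either. At an unadjusted p under 0.05 there was 1 member in WT (Tgtp1, with 3.66% of genes) and 1 in APP (Igtp, with 4.81% of genes). The sum of Tgtp1 and Tgtp2 in WT had a log2 change of 0.47 ± 0.80 and an unadjusted p of 0.56 by edgeR. DESeq2 gave 1 member in each at an unadjusted p under 0.05, with 3.54% and 5.19% of genes, and called none of the 8 (0.631% and 0.539% of genes). Limma voom gave 5 and 4 members, with 6.83% and 10.5% of genes, and called none of the 8 (0.0213% and 0.0638% of genes). Gbp2 had a log2 change of 1.52 ± 0.74 in WT and 1.30 ± 0.68 in APP, and of 2.73 in APP without APP vehicle replicate 5, so the order of the genotypes turned on that library. Igtp had one of 0.12 ± 0.44 in WT and 1.14 ± 0.42 in APP. Gbp5 was above 0 in WT, at 1.05 ± 1.17, and below it in APP, at −0.50 ± 1.07, and the APP value was above 0 in the pair fit and without the pair 59 and 60 (0.57 and 0.76). The medians of the 8 members were 0.73 in WT and 0.55 in APP. The APP median was 1.10 without APP vehicle replicate 5, above that of WT, and 0.36 without APP vehicle replicate 2.

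Comparing each LPS library with the vehicle library of the adjoining number gave larger changes. In an edgeR fit with the 9 pairs as blocks (18 libraries, without WT LPS replicate 1), 2 of 8 members were called, both higher, for LPS averaged over the genotypes. The same fit called 1.49% of 14068 genes and 0.796% as higher. Gbp2 rose by a log2 change of 2.22 ± 0.42 (edgeR adjusted p = 0.00831). Tgtp1 was the other call (adjusted p = 0.0314), but the sum of Tgtp1 and Tgtp2 was not called (0.64 ± 0.29, adjusted p = 0.477). Gbp2 was also the 1 member called by limma voom with the pair as a random effect (2.31, adjusted p = 0.00725), where 0.482% of genes were called. Its call remained with each of the 9 pairs left out in turn, at 1.83 to 2.50 and adjusted p-values of 5.22e-04 to 0.0472. Each of those 9 fits called 116 to 274 genes in all.

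Gbp3 (1.56 ± 0.44, adjusted p = 0.103) and Gbp7 (1.12 ± 0.34, adjusted p = 0.134) did not pass in the pair fit by edgeR. Gbp3 passed without the pair 51 and 52 (1.91, edgeR adjusted p = 0.0301) and without the pair 59 and 60 (1.93, adjusted p = 0.00912), and Tgtp1 in 4 of the 9 fits that left out a pair. Irgm2, at 0.57 ± 0.21, kept nearly the size it had in the group fit, as did Igtp at 0.66 ± 0.34 and Irgm1 at 0.42 ± 0.23. Gbp5, at 2.19 ± 0.85, rests in part on WT vehicle replicates 2 and 3, which held at most 3 counts. All 8 were above 0, as were 45.1% of genes, and their median was 1.34 against −0.04 over all genes, and 0.89 with the Tgtp copies summed. Within a genotype the pair fit called 0 of 8 members, and 0.142% of genes in WT and 0.583% in APP. At an unadjusted p under 0.05 there were 4 members in each, with 4.98% of genes in WT (Gbp2, Gbp5, Irgm2 and Tgtp1) and 7.66% in APP (Gbp2, Gbp3, Gbp7 and Igtp). The sum of Tgtp1 and Tgtp2 had 0.82 ± 0.42 in WT there, with an edgeR unadjusted p of 0.0659. All of this rests on a pairing by library number: deviations of paired libraries from their group means went together above a correlation of 0.1 in 5 of 5 APP pairs and in 3 of 4 WT pairs.

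**Figure D3:**
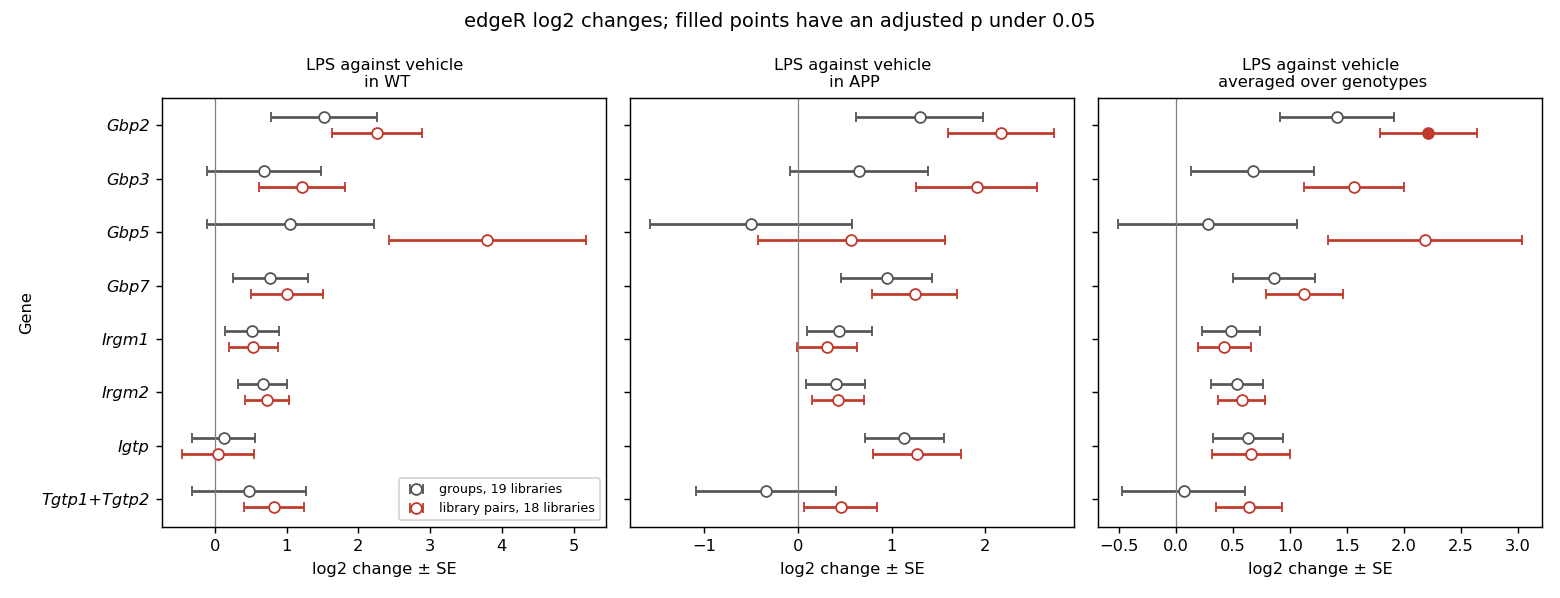
Log2 change with LPS ± SE from edgeR, in WT, in APP and averaged, for the fit of the groups (grey) and the fit of library pairs (red); filled points have an adjusted p under 0.05. The filled point is Gbp2 at 2.22 in the averaged contrast of the pair fit; Tgtp1 and Tgtp2 are summed.

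The pairs differed among themselves in both genotypes. Gbp2 was higher with LPS by log2 differences of 3.17, 3.34, 5.05, 3.24 and 2.52 in the pairs numbered 3 and 4, 7 and 8, 9 and 10, 11 and 12, and 21 and 22. In the pairs 41 and 42, 51 and 52, and 57 and 58 the differences were 1.10, 1.11 and 0.89, and in the pair 59 and 60 it was −0.42. The 5 lower-numbered pairs, 2 WT and 3 APP, thus all lay above the 4 higher-numbered pairs, 2 WT and 2 APP. Gbp3 gave 1.83 to 3.97 in the first 5 pairs and −0.80 to 0.48 in the last 4, and Gbp7 gave 1.29 to 3.29 and −0.38 to 0.11. Of the 8 members, 8, 7, 8, 7 and 7 were higher with LPS in the first 5 pairs and 6, 3, 7 and 1 in the last 4, in the order above. Tgtp1 was lower in the pair 41 and 42 and higher in the pair 51 and 52 by 1 count against 0. The median difference over all genes was −0.23 to 0.016 in the 9 pairs. How many of all genes were higher in each pair, or divided between the first and last pairs, was not counted.

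For Gbp2, Gbp3 and Gbp7 the same numbers divided the vehicle libraries. Vehicle libraries numbered 3 to 21 had 4.56 to 30.6 CPM of Gbp2 and those numbered 41 to 59 had 44.7 to 260 CPM, whereas LPS libraries had 110 to 267 CPM up to number 22 and 96.8 to 207 CPM from number 42. Gbp3 did the same with vehicle, at 6.51 to 19.5 CPM and 43.1 to 236 CPM, and so did Gbp7, at 11.8 to 31.2 and 45.9 to 91.3 CPM. Irgm1 did so too, by a small gap, at 27.0 to 36.5 and 38.6 to 77.1 CPM. The ranges overlapped for Irgm2 (22.5 to 32.03 and 25.8 to 71.4 CPM), Igtp (5.56 to 24.0 and 13.4 to 35.5 CPM), Gbp5 (0 to 3.66 and 0.137 to 55.9 CPM), and the sum of Tgtp1 and Tgtp2 (8.61 to 59.4 and 7.22 to 361 CPM). Of the higher-numbered vehicle libraries, 57 and 59 had macrophage marker sums of 3975 and 2837 CPM, and 41 and 51 had 11051 and 10152 CPM. The numbers were divided after the values had been seen, and the labels do not say what a library number stands for. How many of all genes divided in that way was not counted, so the division is not shown to be particular to these GTPases. With the number range as a term in the group fit, Gbp2 had a log2 change of 2.04 (edgeR adjusted p = 0.161) and 0 of 8 members were called.

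**Figure D4:**
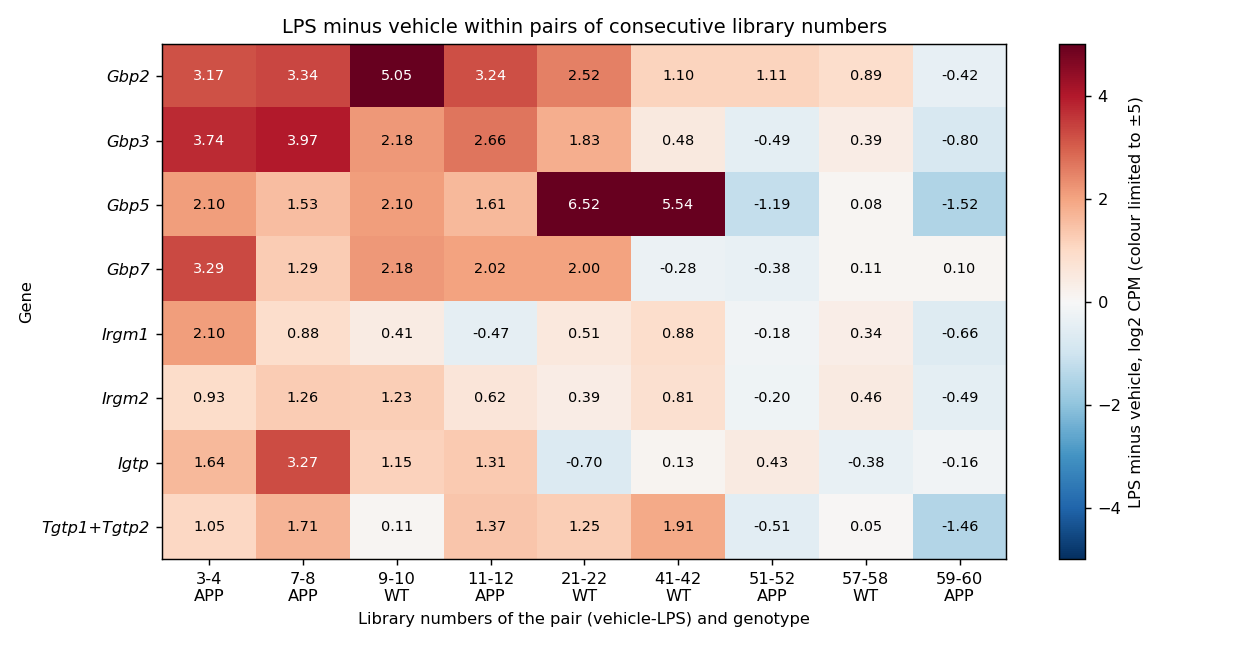
Log2 CPM difference of LPS minus vehicle in the 9 pairs of consecutive library numbers, in order of number, for 7 members and for Tgtp1 and Tgtp2 summed; red is higher with LPS. Gbp2 is at 2.52 to 5.05 in the first 5 pairs and at −0.42 to 1.11 in the last 4, and Gbp5 above 5 is against vehicle libraries with at most 3 counts.

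Single members were set against all genes by their number of pairs. At least 8 of 9 pairs were higher for 1 member, Gbp2, and for 3.65% of 14113 genes. At least 7 pairs were higher for 5 members (Gbp2, Gbp3, Gbp5, Gbp7 and Irgm2) and 10.3% of genes. At least 6 pairs were higher for all 8 members and 22.4% of genes. Tgtp1 reached 6 only with the pair 51 and 52, at 1 count against 0, below the floor of 3 counts. The sum of Tgtp1 and Tgtp2 was higher in 7 pairs. No member was higher in all 9 pairs, as 0.935% of genes were.

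The second question was whether the transgene changed the GTPases, alone or in their response to LPS. The edgeR group fit called 0 of 8 members between APP and WT with vehicle, 0 after LPS and 0 for the difference between the LPS effects, and 0% of 14113 genes in each. At an unadjusted p under 0.05 there was 1 member with vehicle (Tgtp1, with 2.85% of genes), 0 after LPS (3.42%) and 1 for the difference of effects (Tgtp1, with 2.73%). For the sum of Tgtp1 and Tgtp2 the vehicle difference was 1.83 ± 0.83 on the log2 scale (edgeR unadjusted p = 0.039, adjusted p = 1) and the difference of effects −0.81 ± 1.09 (unadjusted p = 0.463). DESeq2 called none of the 8 in these contrasts, where it called 0.453%, 0.489% and 0.701% of genes, and limma voom called none of the 8 and 0% of genes in each. The members' median log2 difference of APP minus WT was 0.40 with vehicle and 0.31 after LPS. Without APP vehicle replicate 5 the vehicle median was −0.16, and it was 0.69 without WT vehicle replicate 3 or without WT vehicle replicate 4. Without APP LPS replicate 1 the median after LPS was 0.018. With vehicle, Gbp2 was 0.37 ± 0.71 higher in APP on the log2 scale, −1.06 without the libraries 59 and 60 and −0.018 without WT vehicle replicate 1. Gbp3 had 0.74 ± 0.79, and −1.03 without the libraries 59 and 60. Igtp had the largest positive difference between the LPS effects, 1.01 ± 0.60 in APP minus WT, and was not called.

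APP vehicle replicate 5, the library numbered 59, held the highest vehicle value of each member but Gbp7, and of the sum of Tgtp1 and Tgtp2. The 8 members together had 857 CPM there and 117 to 289 CPM in the other APP vehicle libraries. Its macrophage marker sum was 2837 CPM, the lowest of the vehicle libraries. The part of that in the GTPase levels was not tested.

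The 8 members went up and down together over the 19 libraries. All 28 pairings of members had a positive Pearson r of log2 CPM, from 0.16 (Gbp7 with Tgtp1) to 0.87 (Gbp2 with Gbp3), with a median of 0.55. These are descriptions over libraries that share treatment, depth and library number. The r of a member with the mean of the other 7 was highest for Gbp2 and Gbp3, at 0.87 each, and lowest for Tgtp1, at 0.46. Among the 9 vehicle libraries alone it was 0.90 for Gbp3, 0.83 for Gbp2 and Irgm1, 0.78 for Irgm2, and 0.44 (Tgtp1) to 0.61 (Igtp) for the other 4.

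The 10 genes whose log2 CPM was most like the members' mean over the 19 libraries were led by Ifit1 (r = 0.95) and Ifit3 (r = 0.94), which block translation of viral RNA. Next came H2-Q4, an MHC class Ib gene (r = 0.93), and Gbp6, another guanylate-binding protein (r = 0.89). The others were Cxcl5, Isg15, Ccl20, C3, Herc6 and Cxcl3, at 0.87 to 0.88. Of the 10, 4 were on a list of 41 type I interferon antiviral genes, and Cxcl5, Cxcl3 and Ccl20 are chemokines. Irf7, the factor that amplifies type I interferon, had an r of 0.79 and Irf1 one of 0.17.

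**Figure D5:**
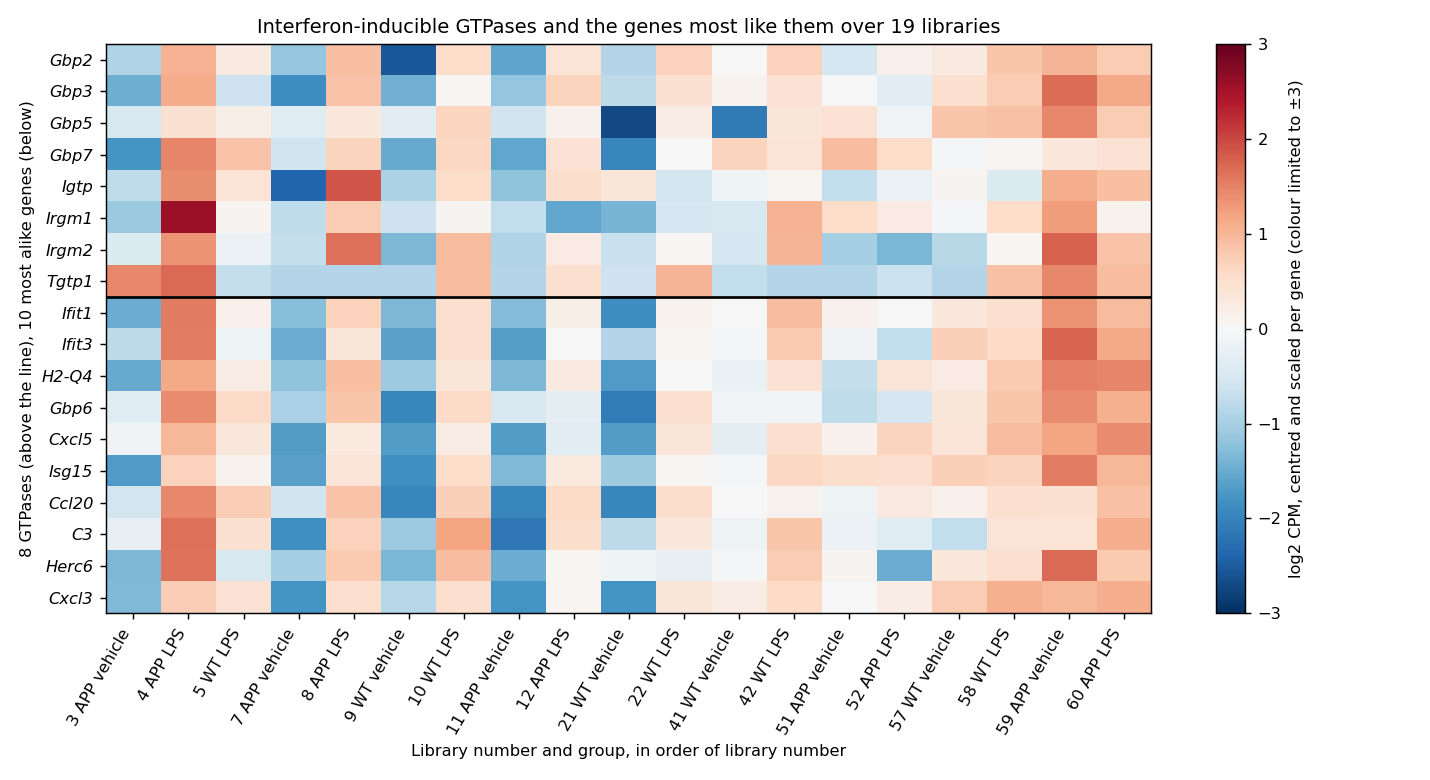
Log2 CPM, centred and scaled per gene, of the 8 GTPases (above the line) and the 10 genes most like them (below it) in the 19 libraries, in order of library number. Vehicle libraries up to number 21 are mostly blue in both blocks, and vehicle library 59 is mostly red, where Gbp2 had 260 CPM.

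Among the remaining GTPases of the same kind, most log2 changes were above 0 and none was called. Of 28 listed, 18 were measured and 16 were tested in the pair fit, and none was called in either direction by the pair fit or the group fit of edgeR, by DESeq2 or by limma voom. At an unadjusted p under 0.05 there were 3 of 16 in the pair fit (9.21% of all genes), 1 of 17 in the group fit (6.14%), 1 of 17 by DESeq2 (6.65%) and 4 of 17 by limma voom (12.1%), all higher. Without the pair 59 and 60 the pair fit called 1.98% of 13828 genes, and 1 of these 16, Gbp6 (1.53, edgeR adjusted p = 0.0482). In the averaged pair fit 14 of 16 log2 changes were above 0, with a median of 0.82. Of all genes 45.1% were above 0 there, with a median of −0.04. Gbp6 had 1.34 ± 0.38 (adjusted p = 0.100), Iigp1, an effector like Tgtp1, 1.33 ± 0.56, and Gbp9 1.97 ± 0.93. Gbp4 had 1.04 ± 1.05, Ifi47 0.54 ± 0.38, Gvin1 0.58 ± 0.85 and Gvin2 0.74 ± 0.65. The 2 large GTPase genes Gvin1 and Gvin2 were listed at 0 in 2 and 1 libraries and reached 366 and 356 CPM elsewhere. 9930111J21Rik2 had −0.11 ± 0.12, F830016B08Rik 0.05 ± 0.86, Gm5431 −0.71 ± 1.59 and Tgtp2 alone 0.03 ± 0.60.

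Upstream, the ligand genes were barely seen. Ifng was not among the genes analysed here, and Ifnb1 was listed at 0 in 18 of 19 libraries and had 28 counts in the other. Of the other inducers, Il12b (3.89 ± 1.37), Ebi3 (0.45 ± 0.20) and Il23a (−0.16 ± 0.24) did not pass in the averaged pair fit, and 0 of 6 genes tested did by edgeR, DESeq2 or limma voom (2 at an unadjusted p under 0.05 in the pair fit), while the pair fit without 59 and 60 called 1 of 6, Il12b (5.35, edgeR adjusted p = 0.0189). Among 18 receptor and JAK-STAT genes 2 rose and none fell, where the averaged pair fit called 0.796% of all genes as higher. Jak2, a kinase of the interferon gamma receptor, rose by 0.92 ± 0.16 (edgeR adjusted p = 0.00385, higher in 9 of 9 pairs). Socs3, a feedback inhibitor of cytokine receptors, rose by 1.35 ± 0.23 (adjusted p = 0.00385, 9 of 9 pairs). The group fit called neither, and Jak1 (0.02 ± 0.11), Ifnar2 (0.29 ± 0.10) and Il10rb (−0.29 ± 0.11) did not pass.

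None of 9 interferon regulatory factors tested was called by edgeR, DESeq2 or limma voom (2 at an unadjusted p under 0.05 in the pair fit, 1 of them higher), and their median in the averaged pair fit was −0.04. Irf2 had −0.19 ± 0.12, Irf8 −0.52 ± 0.18 and Irf1 −0.06 ± 0.24. Of 39 type I interferon antiviral genes 2 rose, Ifit1 by 1.67 ± 0.41 (edgeR adjusted p = 0.0471) and Zbp1, a sensor of nucleic acids that drives cell death, by 2.04 ± 0.50 (adjusted p = 0.0469). The log2 change was above 0 for all 39 and had a median of 0.80. Over all genes 45.1% were above 0, the median was −0.04, and 0.796% were called as higher. Isg15 (1.67 ± 0.44), Ifitm3 (0.45 ± 0.12) and Bst2 (0.41 ± 0.17) did not pass. Of 20 interferon gamma readouts tested, 1 rose, the Fc receptor Fcgr1 by 0.98 ± 0.23 (adjusted p = 0.0408), and the median was 0.56, with Slfn5 at 0.55 ± 0.18, Psme2 at 0.63 ± 0.23 and Cd274 at 1.19 ± 0.36. The group fit called none of these 3 lists' genes. Without the pair 59 and 60 the pair fit called 1.15% of all genes as higher and 11 of 39 antiviral genes, all higher with Isg15 (edgeR adjusted p = 0.00588), Ifitm3 and Bst2 among them, and 3 of 19 interferon gamma readouts (Fcgr1, Cd274 and Slfn5), all higher.

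Downstream, 1 of 17 genes of vacuole tagging fell and none rose. The averaged pair fit called 1.49% of all genes in either direction and 0.796% as higher. Lgals3, a lectin that marks broken vacuoles, fell by 0.78 on the log2 scale (SE 0.11, edgeR adjusted p = 5.38e-04, lower in 9 of 9 pairs). Sqstm1 (0.18 ± 0.08) and Map1lc3b (−0.0039 ± 0.09), which carry cargo to autophagosomes, did not pass. Of 9 genes of caspase-11, the inflammasomes and gasdermin, 2 rose: Il1b, the cytokine the inflammasome matures, by 3.63 ± 0.34 (adjusted p = 2.12e-05) and the sensor Nlrp3 by 0.89 ± 0.21 (adjusted p = 0.0324). Casp1 (0.07 ± 0.16) and Pycard (−0.11 ± 0.14) did not pass. None of 6 prenylation genes was called by edgeR, DESeq2 or limma voom, and 0 had an unadjusted p under 0.05 (Pggt1b −0.27 ± 0.18, Fnta −0.09 ± 0.15, Zmpste24 −0.13 ± 0.16). Their products attach the lipid anchors of proteins such as Gbp2 and Gbp5 or process the protein end that bears them. Of the LPS reference genes, 10 of 10 rose in the pair fit, and 2 of them, Il1b and Tnf, in the group fit. That list was chosen with earlier results of these data known, so it is not an independent check of the treatment.

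Markers of the cells themselves moved in the same averaged pair fit, which called 1.49% of all genes in either direction and 0.796% as higher. Of 20 microglia and macrophage markers 7 fell and none rose, among them Cx3cr1 by 1.40 on the log2 scale (edgeR adjusted p = 0.0197). Of 3 neutrophil markers tested, S100a8, which activated macrophages also express, rose by 1.47 ± 0.23 (adjusted p = 0.00182), and 0 of 4 lymphocyte markers tested were called by edgeR, DESeq2 or limma voom (0 at an unadjusted p under 0.05 in the pair fit). Of 11 markers of border-associated macrophages and monocytes 1 fell, the mannose receptor Mrc1 by 1.28 (adjusted p = 2.12e-05). Of 9 astrocyte markers 1 fell, Aldoc (adjusted p = 0.0123, lower in 9 of 9 pairs). Of 16 markers of pericytes, smooth muscle and fibroblasts 2 fell, Tagln by 0.57 and Acta2 by 0.76 (adjusted p = 0.00118 and 0.0477), and Dcn rose by 0.43 (adjusted p = 0.013). Of the oligodendrocyte, neuron and endothelial markers tested (9, 4 and 9), edgeR called 0 (0, 0 and 1 at an unadjusted p under 0.05 in the pair fit), limma voom 0 and DESeq2 1 of the oligodendrocyte markers, as lower. The part of these shifts in the GTPase levels was not tested.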

How the data were processed

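Polyadenylated RNA of cultured microglia was sequenced as 19 QuantSeq 3′ libraries, per the labels' protocols. Per the submitters' processing notes, FastQC, Trimmomatic, kallisto and DESeq2 were used. Versions, build, annotation and the handling of molecular identifiers were not given in the sources used here. What the authors deposited are kallisto's estimated counts, 1 row per gene symbol and already whole, so rounding changed 0 of them. No gene had fewer than 10 counts over all libraries. The members and all gene lists were chosen with earlier results of these data known.

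CPM used TMM-scaled library totals (edgeR 4.0.16, limma 3.58.1, R 4.3.3). Groups came from the labels. WT LPS replicate 1 is library 5 in its label and 6 in its file. The main test was edgeR's quasi-likelihood F test with 1 coefficient per group over 19 libraries, on the 14113 genes that passed filterByExpr (2828 did not), with Benjamini-Hochberg adjustment over all of them. SE is the log2 change divided by the root of F. Correlations and pair differences used log2 CPM with a prior count of 2. Floors of 3 counts (0.0963 to 0.249 CPM) cover counting error only. Closest libraries of a group still differed by a chi-square of 87.4 per degree of freedom (36 pairings), so none was a copy.

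Pairs come from consecutive library numbers, which in APP are also the replicate numbers of the titles. Correlations of deviations from group means were 0.13 to 0.35 over the 5 APP pairs, all above 0.1, and 0.096 to 0.29 over the 4 WT pairs, where the pair 41 and 42 fell short. Alternatives were other scalings, no filter, DESeq2 1.42.0, limma voom with the pair as a random effect, blocks, left-out libraries and summed Tgtp copies. On simulated counts with 200 changed genes, the group fit recovered 193 and the pair fit 184. The simulated libraries held no effect shared within a pair, so these numbers do not rank the fits. Recovery of genes with log2 changes and scatter like those of the members was not tested. Which fit suits these libraries better was not tested either.

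Named genes were the members, other GTPases with a mean of at least 5 CPM, the 3 highest genes of each pathway list, genes of those lists called for LPS, and the 10 genes most like the members. Promoter stretches are from RefSeq (GRCm38.p6); 8 of 8 members matched by symbol.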

Additional observations from a re-analysis of the deposited data

Results flagged for a closer look

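Of 36 sets of 4 or 5 libraries (9 gene values in 4 groups) tested for a library far from the rest of its group, 9 had one, by Dixon's ratio at its 95% critical value. The ratio was taken on CPM, not on log2 CPM, and all 9 marks were high values. A rate of about 1 set in 20 by chance holds only for normally spread values, which was not tested for these CPM. Whether the marks remain on the log2 scale was not tested. APP vehicle replicate 5 stood above the other 4 for Gbp2 (260 CPM), Gbp3 (236 CPM), Gbp5 (55.9 CPM), Igtp (35.5 CPM), Irgm2 (71.4 CPM) and the sum of Tgtp1 and Tgtp2 (361 CPM). APP LPS replicate 1 stood above its group for Gbp7 (133 CPM) and Tgtp1 (123 CPM). WT vehicle replicate 4 stood above its group for Gbp5 (21.6 CPM). The 9 marks are not independent, since 6 of them are 1 library and the members' levels go together.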

How the results depend on the processing

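By the edgeR group fit, 0 of the 8 members were called in each of the 6 contrasts, and this held under the scalings by DESeq2 size factors and by plain totals, without the filter on low counts, by DESeq2, with the Tgtp copies summed, with library number range as a term and with each of 19 libraries left out in turn (0 to 0 members). For averaged LPS, DESeq2 called 178 genes in all and the other settings just named 0 to 13. The replicate block by consecutive library numbers gave 2 members for LPS averaged over the genotypes (Gbp2 and Tgtp1) and 1 with the Tgtp copies summed (Gbp2). These blocks called 210 and 208 genes in all. Limma voom with the pair as a random effect gave 1, and so did the group fit without libraries 57 to 60 and without the pair 59 and 60 (Gbp2 each time, with log2 changes of 2.33 and 2.11 and edgeR adjusted p-values of 0.0270 and 0.0476 in the last 2). Limma voom called 68 genes in all. The fit without libraries 57 to 60 called 31 and the fit without the pair 59 and 60 called 15. The setting without the pair 59 and 60, the block with the copies summed, the pairs left out and the number range were chosen after seeing the data. With each pair left out of the block in turn, 1 to 3 members were called for averaged LPS, and 116 to 274 genes in all. The replicate block by the number in the titles called 0 members in its 4 contrasts, and 0 to 26 genes in all. Over 12 alternatives Gbp2 for averaged LPS ran from 1.37 to 2.33, with adjusted p-values of 0.00725 to 0.661.

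Changes of direction were in values that did not pass. Gbp5 in APP turned above 0 with the pair block (0.57, also with the Tgtp copies summed), the block by titles (0.57), limma voom with the pair (0.58), without libraries 57 to 60 (0.76), without the pair 59 and 60 (0.76) and with the number range (0.40). Without libraries 57 to 60 and without the pair 59 and 60, APP against WT with vehicle turned to −0.51 and −1.06 for Gbp2 and to −0.50 and −1.03 for Gbp3. With each library left out in turn, Igtp in WT ran from −0.042 to 0.26, Gbp5 in APP from −0.82 to 1.09, and APP against WT with vehicle from −1.06 to 0.91 for Gbp2 and from −1.03 to 1.26 for Gbp3. The cause of these turns was not tested. Within the vehicle groups Gbp2 spread over 24.5-fold (WT) and 19.25-fold (APP), and whether that spread limits the calls was not tested.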
